A study of Rattus norvegicus with 9 samples.

Results

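The genes described here encode the 2 mTOR kinase complexes, the signals that act on them, and their targets. A list of 39 symbols was looked up in the deposited table of expression per transcript length (FPKM), which names 11235 genes, and 37 of the 39 were found. Rictor, the defining subunit of mTOR complex 2, and Depdc5, a subunit of the GATOR1 complex, had no row in that table under these symbols and were not analysed here. All 37 genes had enough reads to be tested. They fell into 7 genes of the complexes, 12 of the upstream PI3K-AKT-TSC arm, 12 of amino acid sensing, 5 targets, and Fkbp1a, the receptor of the drug.

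Kidney RNA of wild-type Sprague-Dawley rats, 6 to 8 weeks old by the labels, was sequenced after poly(A) selection in 9 libraries, 3 in each of 3 groups. The sham group had the operation without ischaemia. The ischaemia-reperfusion (I/R) group had the renal artery clamped for 45 min and then released, a model of acute kidney injury. Rats of the I/R + rapamycin group were injured likewise and given rapamycin. The series design gave male rats and intraperitoneal rapamycin at 1 mg/kg per day, whereas in the sample protocols both sexes are named, with oral gavage at 1 or 2 mg/kg per day and collection after 3 or 7 days in 6 groups. Sex, route, dose and time of the sequenced kidneys are therefore unsettled. The labels number the replicates without saying that each is a separate animal, and p-values therefore cover only the spread among these libraries, which may in part be technical. The source is given both as kidney and as renal tubular cells. Podocyte and endothelial markers, which are not tubular, were measured in every library: 5 of 5 podocyte markers were tested, with summed levels of 423 to 702 CPM (read counts scaled to a common library size), and 6 of 6 endothelial markers, with 465 to 560 CPM. In bulk RNA, fewer cells of a type and less RNA per cell cannot be told apart.

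mTOR is a protein kinase that couples nutrients and growth factors to protein synthesis. In mTOR complex 1 it works with Raptor (Rptor) and phosphorylates the S6 kinases and the 4E-BP repressors of translation; in mTOR complex 2 it works with Rictor and phosphorylates AKT and SGK1. Growth factors act through PI3K, PDK1 and AKT, which relieve the block that the TSC complex places on the GTPase Rheb, while amino acids act through the Rag GTPases on the lysosome. Rapamycin binds FKBP12, the product of Fkbp1a, and the pair blocks mTOR complex 1. In the kidney the pathway bears on tubular growth, repair and autophagy. RNA levels measure neither the kinase activity nor the phosphorylation that the drug acts on.

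Total counts lay between 44582251, in I/R + rapamycin 1, and 60538627, in sham 3; the genes tested numbered 17335. The libraries of a group differed from each other. On the first principal component (29.1% of the variance) the extremes were sham 3 and I/R 1 on one side, and the treated libraries 1 and 2 on the other. Summed erythrocyte markers (3 of 4 tested) ran from 245 to 2552 CPM in sham, from 1242 to 3332 CPM in I/R and from 84.8 to 524 CPM with rapamycin. Summed immediate early and heat shock genes (8 of 10 tested) ran from 571 to 3433 CPM in sham, from 354 to 1663 CPM in I/R and from 310 to 390 CPM with rapamycin. Podocyte markers summed to 686 to 702 CPM in sham, 452 to 636 CPM in I/R and 423 to 593 CPM with rapamycin. The libraries also differed in how level followed transcript length. The slope of each library's log2 deviation per doubling of length was 0.09, 0.01 and 0.04 in I/R 1 to 3, and -0.09, -0.04 and -0.01 in I/R + rapamycin 1 to 3. The rapamycin libraries thus held relatively fewer reads of long transcripts than the I/R libraries, with no overlap. The part of these differences in the results was not tested, except for length. Values with the length trend removed are given beside many of the results.

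Per transcript length the 37 genes spanned a wide range of levels. The mean FPKM over the 9 libraries was 95.8 for Lamtor5, a subunit of the Ragulator scaffold, and 88.4 for Sgk1, a kinase that raises tubular sodium uptake. At the other end it was 1.42 for Eif4ebp1 and 2.99 for Tsc1. Mtor lay near the middle of the table's genes, at 6.58 ± 0.82 FPKM in sham, 7.42 ± 0.45 in I/R and 6.14 ± 0.47 with rapamycin (SD over 3 libraries, as for every ± below). Its mean stood at percentile 42.0 of the named genes, against 95.1 for Sgk1 and 1.61 for Eif4ebp1.

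Some paralogues differed widely in level per length and others were close. The FPKM of Eif4ebp2 was 12.4 to 30.5 times that of Eif4ebp1 in the 9 libraries, with a median of 22.4. Akt1 and Akt2 were nearly level, with a ratio of 0.791 to 1.01. Rps6kb2 stood at 1.22 to 1.62 times Rps6kb1, and Rragc at up to 2.54 times Rragd, with a median of 2.09. Among partners, Mtor stood at 1.51 to 1.85 times Rptor, Tsc2 at 1.27 to 2.12 times Tsc1, and Fkbp1a at 4.46 to 6.83 times Mtor. Ratios rest on the authors' transcript models, as FPKM does.

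**Figure D1:**
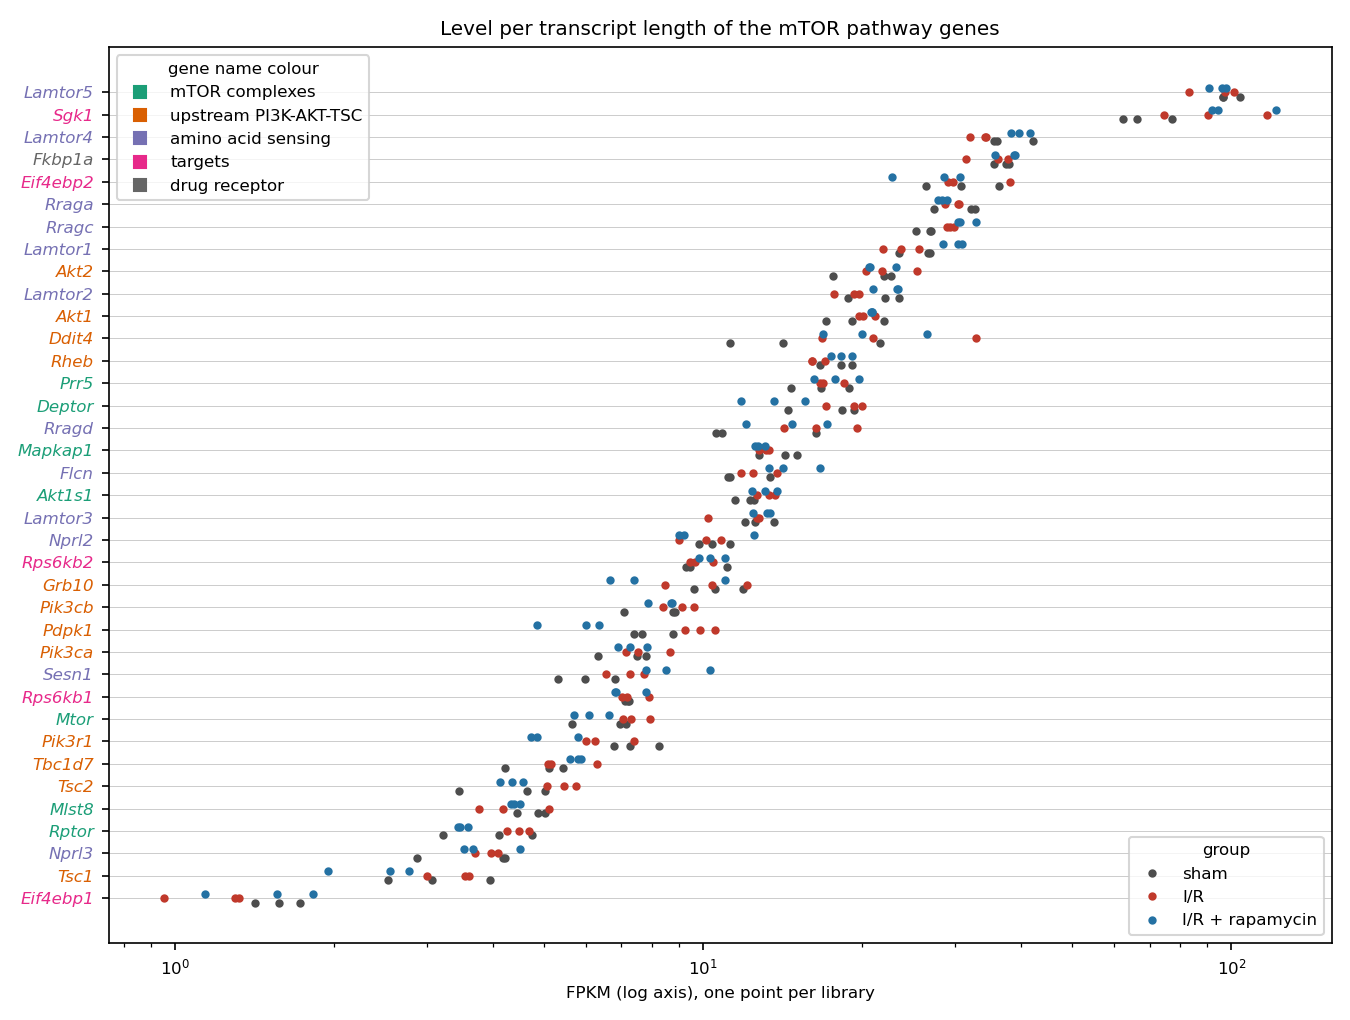
FPKM of the 37 mTOR pathway genes (log axis), 1 point per library, ordered by the mean of all libraries and with gene names coloured by role. Lamtor5 and Sgk1 lie at the top and Eif4ebp1 at the bottom, and for most genes the groups are close together compared with the distance between genes.

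The groups allow 3 comparisons. The injury comparison sets I/R against sham and asks what the injury changed. The drug comparison sets I/R + rapamycin against I/R and asks what rapamycin changed in injured kidney. The combined comparison sets I/R + rapamycin against sham. edgeR's quasi-likelihood test called none of the 37 genes in any of them at a Benjamini-Hochberg adjusted p under 0.05, where it called 10 (0.0577%), 22 (0.127%) and 27 (0.156%) of all tested genes. At an unadjusted p under 0.05 the members numbered 3, 11 and 8 of 37 (8.11%, 29.7% and 21.6%). The background at that threshold was 9.42%, 16.3% and 13.8% of all tested genes, and 10.6%, 19.6% and 15.1% of those named in the FPKM table, from which the members come. DESeq2, which called 240 (1.49%), 678 (4.43%) and 559 (3.14%) of all genes, called 0, 2 and 4 of the 37. The median log2 fold change of the 37 was 0.04, 0.06 and 0.08 in the same order (-0.01, 0.03 and 0.01 for the named genes), with 22, 23 and 24 genes fitted above 0, against 47.7%, 54.4% and 51.6% of the named genes. Groups of libraries did not overlap for 5, 16 and 8 of the members (13.5%, 43.2% and 21.6%), and for 15.6%, 28% and 19.9% of the named genes.

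**Figure D2:**
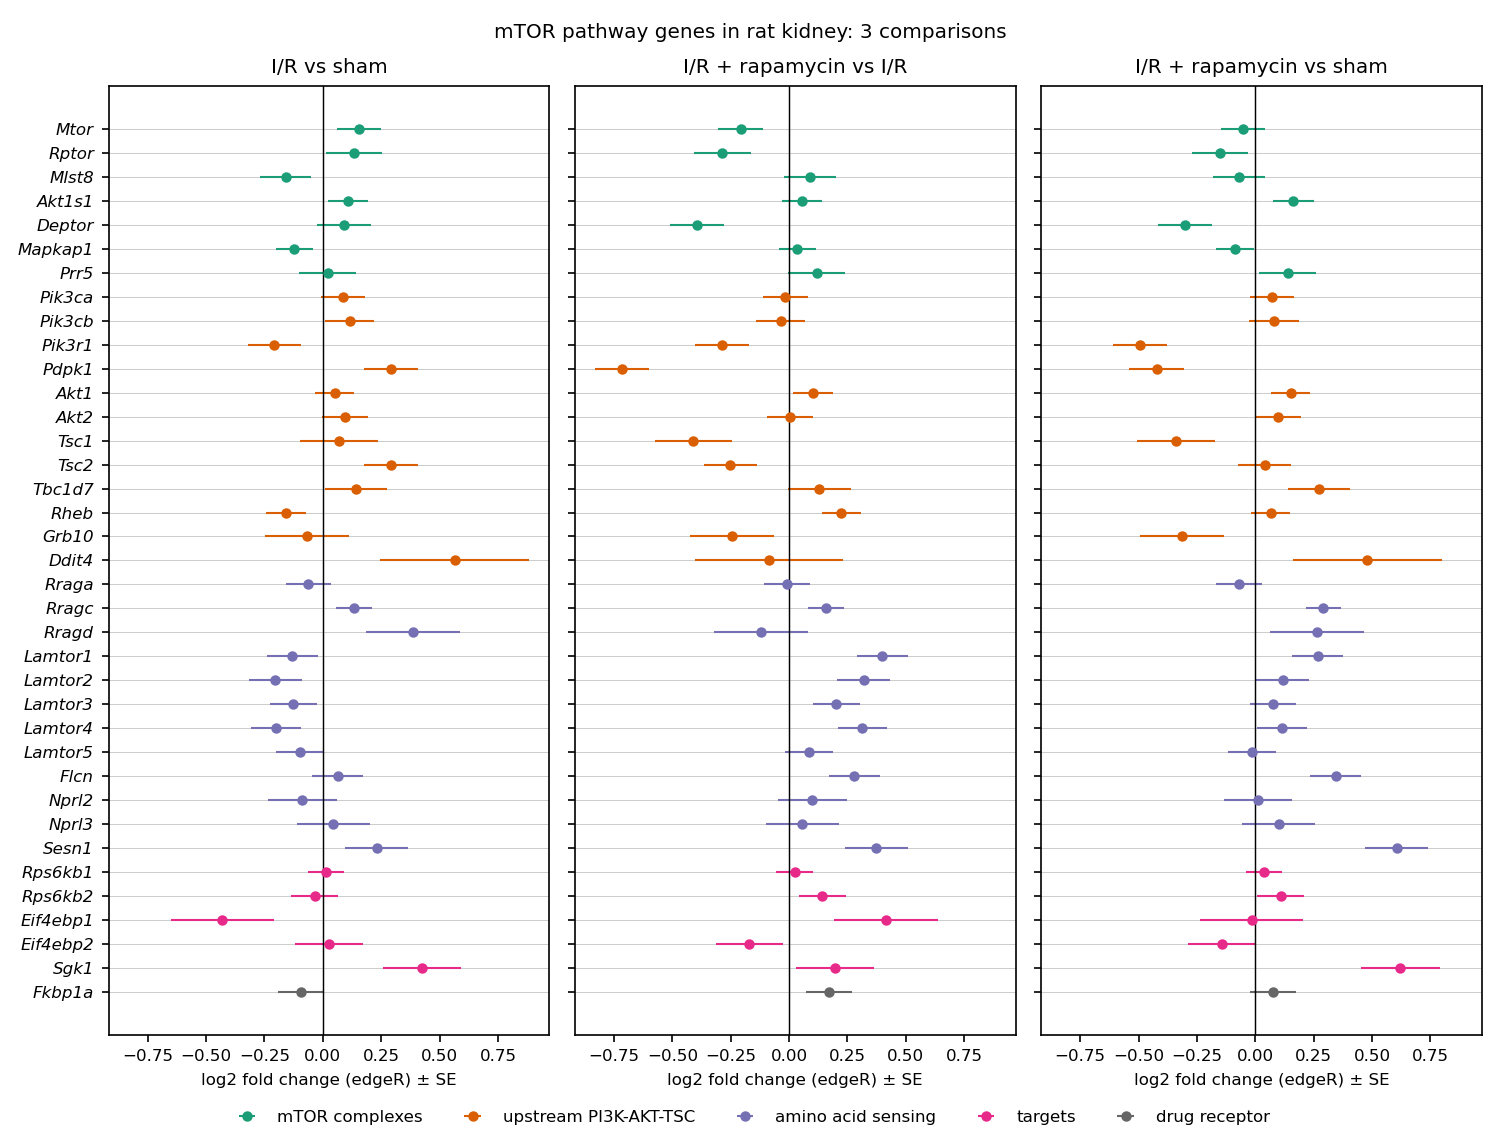
Log2 fold change of each mTOR pathway gene in the 3 comparisons (edgeR, points) with its SE (bars), by role. Most points lie within 0.4 of 0; Pdpk1 stands apart in the drug comparison, at -0.72, and the Lamtor genes lie below 0 in the injury comparison and above it in the drug comparison, where Lamtor5 is the nearest to 0 of them and changes side in both once the length trend is removed.

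For the injury comparison the count of 3 lay near the background share. These genes were Tsc2, Pdpk1 and Sgk1, all fitted higher in I/R. The count was 1 without sham 2 (where 6.12% of all tested genes passed) or without I/R 2 (8.05%), and 8 of 37 (21.6%) without sham 3 (10.3%). Any 2 of the comparisons share a group of libraries, so a library that stands apart enters more than 1 of them. For the drug comparison the count of 11 was 6 without I/R + rapamycin 1 (9.49% of all tested genes), 6 without I/R 1 (13.3%) and 7 without I/R 3 (12.4%).

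None of the 7 measured genes of the complexes had an unadjusted p under 0.05 in the injury comparison. Mtor was at 67.9, 58.7 and 72.4 CPM in sham, 76.5, 76.0 and 69.2 in I/R and 60.0, 64.6 and 67.3 with rapamycin. The 3 I/R libraries lay above the 3 rapamycin libraries, and both overlapped sham. The log2 fold change was 0.15 (SE 0.095) in the injury comparison and -0.21 (SE 0.095, adjusted p = 0.311) in the drug comparison. Mtor has the longest implied length of the list, 10183 bases by its counts and FPKM. With the length trend removed the second value was -0.02.

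Rptor, the Raptor subunit that recruits substrates to mTOR complex 1, was at 30.4, 25.4 and 36.5 CPM in sham, 34.3, 33.6 and 33.3 in I/R and 27.5, 27.9 and 27.6 with rapamycin. The I/R and rapamycin libraries were each tightly grouped and apart from each other, while sham spanned both. The rapamycin group stood at -0.29 on the log2 scale against I/R (SE 0.12, adjusted p = 0.281), or -0.13 with the length trend removed. Deptor, an inhibitory subunit of both complexes, was at 108, 90.7 and 118 CPM in sham, 116, 107 and 114 in I/R and 74.4, 86.9 and 94.9 with rapamycin. All 3 rapamycin libraries lay under all 3 I/R libraries. The log2 fold change against I/R was -0.39 (SE 0.12, adjusted p = 0.167), and -0.28 with the length trend removed. Over 21 alternative analyses it ran from -0.47 to -0.28, with an adjusted p of 0.0558 to 0.48.

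The other 4 subunits were nearly level. Mlst8, shared by both complexes, was at 19.4 ± 0.72, 17.3 ± 2.19 and 18.5 ± 0.56 CPM in sham, I/R and I/R + rapamycin. Akt1s1, which encodes the mTOR complex 1 inhibitor PRAS40, was at 42.6 ± 1.34, 46.0 ± 2.61 and 47.7 ± 3.70 CPM, and the complex 2 subunit genes Mapkap1 and Prr5 were between -0.12 and 0.14 in every comparison (log2 fold change). Akt1s1 overlaps Tbc1d17 on the opposite strand and the strand setting of the counting is not given in the sources used here, so its reads may include those of its neighbour.

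Fkbp1a, the gene of the rapamycin receptor FKBP12, was at 88.1, 98.8 and 97.4 CPM in sham, 88.6, 99.5 and 78.1 in I/R and 104, 96.1 and 99.6 with rapamycin. The groups overlapped in every comparison. Its log2 fold change in the drug comparison was 0.17 (SE 0.098, adjusted p = 0.422).

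The upstream arm held the member with the largest difference between drug and untreated injury. Pdpk1 encodes PDK1, the kinase that activates AKT, the S6 kinases and SGK1 by phosphorylating their activation loop. It was at 18.2, 16.4 and 16.5 CPM in sham, at 21.6, 20.4 and 20.5 in I/R and at 10.9, 13.5 and 13.7 with rapamycin. All 3 groups were apart from each other, with I/R highest and I/R + rapamycin lowest. Against I/R the rapamycin group stood at 0.609-fold (log2 fold change -0.72, SE 0.12, adjusted p = 0.059), and against sham at 0.746-fold (-0.42, SE 0.12, adjusted p = 0.18). I/R stood at 1.22-fold of sham (0.29, SE 0.12, adjusted p = 0.471). DESeq2 gave an adjusted p of 4.1e-05 for the first of these. With the length trend removed it was -0.83 (adjusted p = 0.0544), so the difference was as large without it, and over 21 alternatives it ran from -0.83 to -0.62. The 250 bases before the annotated start site of Pdpk1 are shown because this gene had the lowest p of the list (RefSeq, GRCr8, minus strand, chr10:13679176-13679425).
Pdpk1: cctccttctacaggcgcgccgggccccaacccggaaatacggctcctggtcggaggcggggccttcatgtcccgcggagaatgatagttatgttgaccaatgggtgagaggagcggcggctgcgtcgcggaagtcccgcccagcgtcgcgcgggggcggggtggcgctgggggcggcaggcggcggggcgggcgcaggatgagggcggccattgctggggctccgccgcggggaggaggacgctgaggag
No capitals appear, because none of the 3 motifs described below, with Sesn1 and Flcn, was found in its window.

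The PI3K subunit genes had unlike values. Pik3r1 encodes a regulatory subunit that holds and stabilises the catalytic ones. It was at 44.5, 51.0 and 56.2 CPM in sham, 40.5, 42.0 and 48.8 in I/R and 33.4, 34.6 and 39.5 with rapamycin. The rapamycin libraries lay under all others, and I/R overlapped sham. The log2 fold change of I/R + rapamycin was -0.49 against sham (SE 0.11, adjusted p = 0.124, 0.71-fold) and -0.29 against I/R (SE 0.11, adjusted p = 0.262). Both shrank on removal of the length trend, to -0.43 and -0.16. The catalytic subunit genes Pik3ca and Pik3cb were between -0.04 and 0.12 in every comparison. Pik3r2, another regulatory subunit gene that is not among the members, was also nearly level. It was at 0.05, 0.01 and 0.06 in the injury, drug and combined comparisons, with overlap in each. The FPKM ratio of Pik3r1 to Pik3ca ran from 0.668 to 1.31 over the libraries.

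Akt1 and Akt2, the kinases between PDK1 and the TSC complex, were between 0.00 and 0.15 (log2 fold change) in every comparison. Akt1 was at 76.9 ± 2.75 CPM in I/R and 82.5 ± 1.99 with rapamycin, without overlap. The TSC complex consists of Tsc1, Tsc2, which holds the GTPase-activating domain, and Tbc1d7. Tsc2 was at 35.7, 26.2 and 34.3 CPM in sham, 40.4, 38.4 and 39.0 in I/R and 31.7, 33.6 and 33.7 with rapamycin. I/R thus lay above both other groups, by 0.29 over sham (log2 fold change, SE 0.11, adjusted p = 0.467), and the sham libraries spread more widely than the rest. Without sham 2 the value was 0.16. Tsc1 was at 18.0 ± 1.12 CPM in I/R and 13.5 ± 2.41 with rapamycin (-0.41, SE 0.17, adjusted p = 0.267), and Tbc1d7 was fitted slightly higher (0.13). Tsc2 overlaps Nthl1 on the opposite strand.

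Rheb, the GTPase that activates mTOR complex 1 when TSC is off, lay the other way round from Tsc1 and Tsc2. It was at 83.3 ± 7.14 CPM in sham, 74.7 ± 3.04 in I/R and 87.2 ± 4.37 with rapamycin, and its I/R libraries lay under all others. Its log2 fold change was 0.22 in the drug comparison (SE 0.085, adjusted p = 0.245) and 0.27 with the length trend removed. Ddit4 encodes REDD1, an inhibitor of the pathway that hypoxia and glucocorticoids induce. It was at 26.5, 22.4 and 42.1 CPM in sham, 31.1, 41.9 and 61.7 in I/R and 53.7, 40.6 and 32.7 with rapamycin. Its libraries overlapped between all groups, and its coefficient of variation, 34.2% in sham and 34.6% in I/R, was the highest of the 37 genes in those groups. A log2 fold change of 0.57 in the injury comparison had an SE of 0.32 (adjusted p = 0.64). Grb10, an adaptor that restrains insulin signalling, was at 63.2 ± 6.51, 60.2 ± 10.3 and 50.9 ± 12.9 CPM, with overlap throughout.

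**Figure D3:**
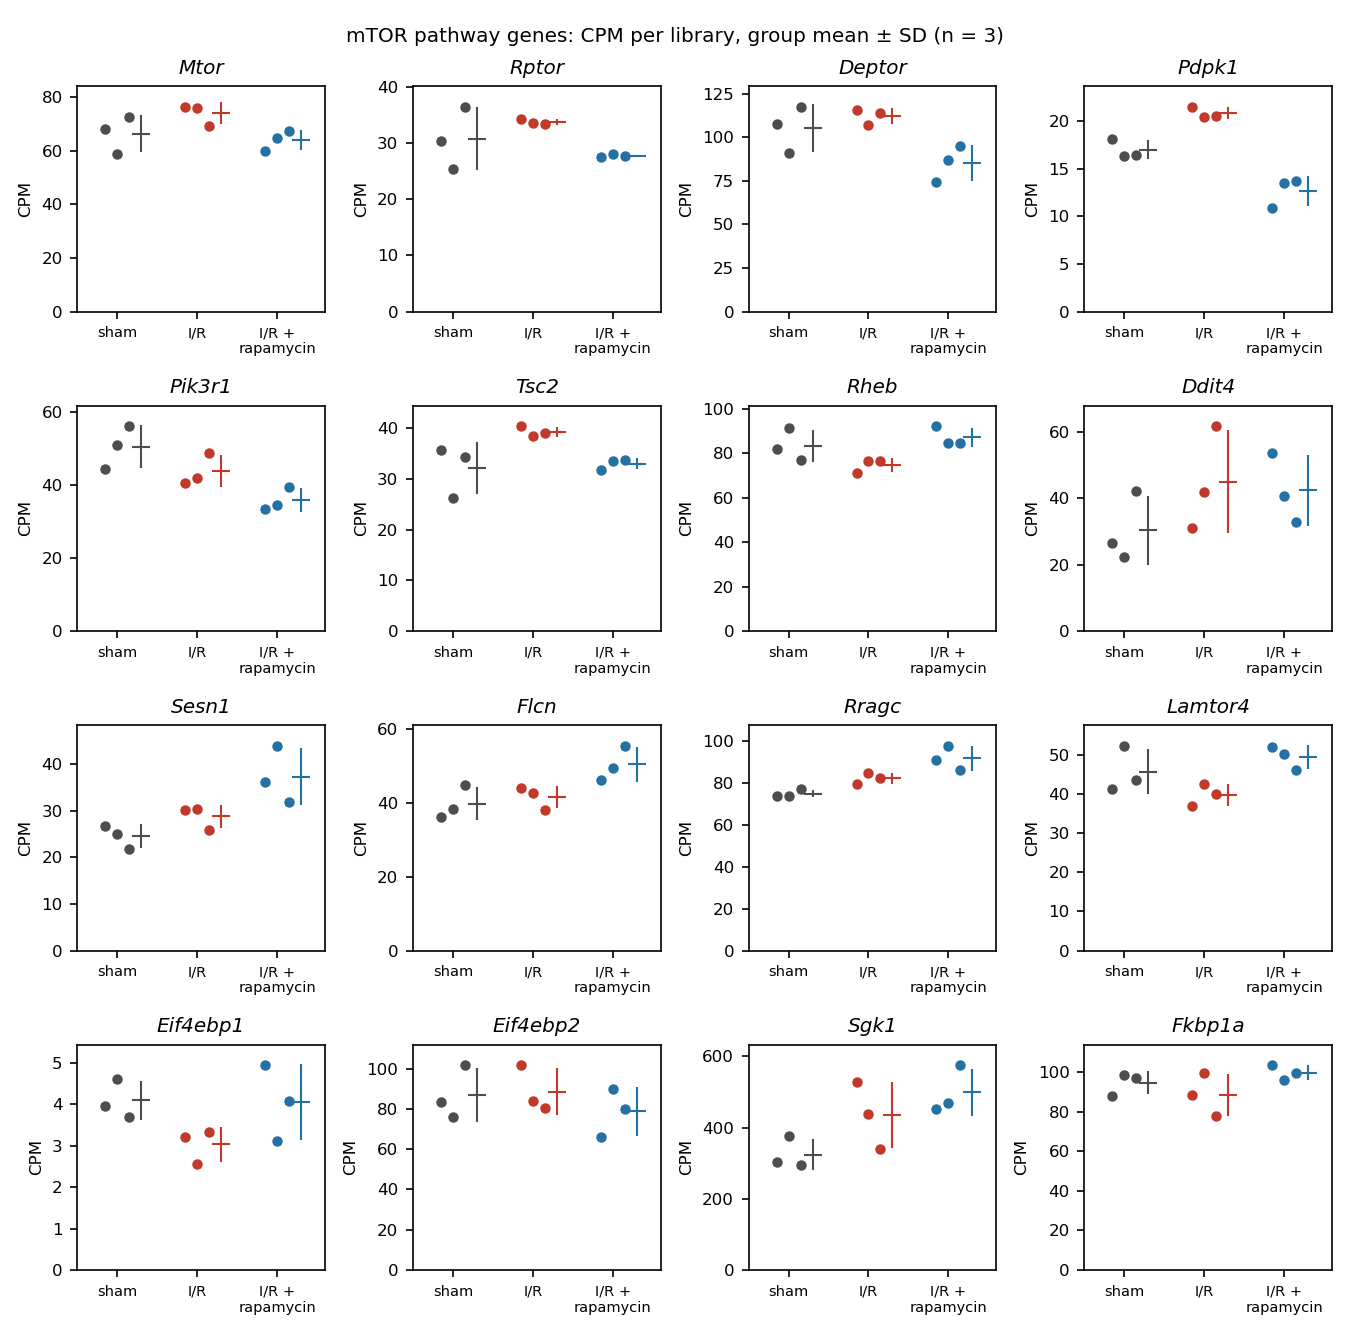
CPM of 16 mTOR pathway genes in each library (points) with the group mean and SD (cross and bar, n = 3), all axes from 0. Pdpk1 is lowest with rapamycin and highest in I/R, Rragc lies in the order sham, I/R, I/R + rapamycin, and Ddit4 spreads widely within every group.

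Of the 6 members higher with rapamycin at an unadjusted p under 0.05 in the drug comparison, 5 belonged to amino acid sensing: Lamtor1, Lamtor2, Lamtor4, Sesn1 and Flcn. Of the 12 tested, 10 were fitted above 0 in the drug comparison (median 0.18). The 5 are 41.7%, against 9.82% of the named genes, and none was lower at that threshold. In 7 the rapamycin libraries all lay higher (58.3%, against 14.9%). With the length trend removed, Sesn1 and Flcn were higher at that threshold, as were 6.41% of the named genes. Rraga was lower, as were 8.1% of the named genes. In the injury comparison 5 were fitted above 0 and 7 below (median -0.08).

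Sesn1 encodes Sestrin1, a p53 target that restrains mTOR complex 1 when leucine is scarce. It was at 26.8, 25.1 and 21.8 CPM in sham, 30.2, 30.5 and 25.9 in I/R and 36.1, 44.1 and 31.9 with rapamycin. The rapamycin libraries lay above all others. Against sham the level was 1.52-fold (log2 fold change 0.61, SE 0.13, adjusted p = 0.115), and against I/R 1.30-fold (0.37, SE 0.13, adjusted p = 0.229). Without I/R + rapamycin 2, the highest library, the second was 0.24 (unadjusted p = 0.104 by edgeR) and the first 0.47. Removal of the length trend left them at 0.61 and 0.40, and DESeq2 gave the first an adjusted p of 0.00658. Flcn encodes folliculin, which activates RagC and RagD on the lysosome. It was at 36.2, 38.2 and 44.7 CPM in sham, 43.9, 42.5 and 38.1 in I/R and 46.2, 49.4 and 55.5 with rapamycin, again the highest in all 3 libraries. This was a log2 fold change of 0.34 against sham (SE 0.11, adjusted p = 0.218) and 0.28 against I/R (SE 0.11, adjusted p = 0.253).

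The promoters of Sesn1 and Flcn are shown because these genes were higher in all 3 rapamycin libraries than in all 6 others, with values nearly unmoved by the removal of the length trend. Each run is the 250 bases before the start site in RefSeq (GRCr8), Sesn1 on the plus strand at chr20:46948469-46948718 and Flcn on the minus strand at chr10:45107290-45107539.
Sesn1: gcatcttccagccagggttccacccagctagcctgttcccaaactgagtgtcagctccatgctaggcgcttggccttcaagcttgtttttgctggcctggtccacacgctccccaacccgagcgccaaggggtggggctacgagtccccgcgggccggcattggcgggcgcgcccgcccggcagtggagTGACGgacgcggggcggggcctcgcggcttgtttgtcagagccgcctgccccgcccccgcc
Flcn: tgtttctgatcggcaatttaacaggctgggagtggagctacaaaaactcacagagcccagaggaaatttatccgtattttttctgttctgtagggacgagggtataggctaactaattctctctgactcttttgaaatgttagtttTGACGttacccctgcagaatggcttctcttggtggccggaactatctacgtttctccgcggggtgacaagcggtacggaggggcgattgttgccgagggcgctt
Capitals mark TGACG, the core of the cyclic AMP response element, 61 bases before the start of Sesn1 and 104 before that of Flcn. RefSeq had a promoter for 31 of the 39 genes. In windows of 300 bases, from 250 before to 50 after the start and on both strands, TGACG was found in 11 of the 31 and in 22% of 27457 promoters. The E-box CACGTG, bound by TFEB and MYC family factors, was found in 3 of the 31 (Akt1s1, Lamtor1 and Rheb) and in 6.65% of all promoters. The FOXO core GTAAACA was found in 4 (Akt1s1, Mapkap1, Pik3ca and Tsc1) and in 3.76%. A match is a description of the letters and not a bound site.

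The Rag GTPases bring mTOR complex 1 to the lysosome. Rragc was at 73.9, 73.9 and 77.0 CPM in sham, 79.6, 84.7 and 82.5 in I/R and 90.9, 98.0 and 86.5 with rapamycin. All 3 groups were apart from each other, in this order. Rragc stood at a log2 fold change of 0.29 in the combined comparison (SE 0.075, adjusted p = 0.16) and 0.13 in the injury comparison. DESeq2 gave an adjusted p of 0.0267 for the first. Rraga was nearly level, at 36.2 ± 3.50, 34.7 ± 2.27 and 34.4 ± 1.41 CPM. Rragd was at 21.4, 23.4 and 34.3 CPM in sham, 39.2, 35.3 and 28.9 in I/R and 32.1, 37.7 and 25.3 with rapamycin, so the groups overlapped.

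The Ragulator, which anchors the Rags, is encoded by Lamtor1 to Lamtor5. All 5 were fitted lower in I/R than in sham and higher in I/R + rapamycin than in I/R. With the length trend removed Lamtor5 changed side in both (0.02 and -0.13). Lamtor1 to Lamtor4 were then at -0.01, -0.14, -0.10 and -0.08 in the injury comparison. No Lamtor gene had an unadjusted p under 0.05 in that comparison, with or without the trend. Lamtor4 was at 41.4, 52.5 and 43.5 CPM in sham, 36.9, 42.7 and 40.0 in I/R and 52.2, 50.3 and 46.3 with rapamycin. Lamtor2 was at 43.6, 49.4 and 38.4 CPM in sham, 34.5, 40.5 and 39.0 in I/R and 49.4, 50.2 and 42.9 with rapamycin. For both genes the rapamycin and I/R libraries did not overlap, and sham reached into both. In the drug comparison the log2 fold change was 0.31 for Lamtor4 (SE 0.11, adjusted p = 0.207) and 0.32 for Lamtor2 (SE 0.11, adjusted p = 0.223). Lamtor3 was at 0.20 and Lamtor5 at 0.08.

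Lamtor1 was at 30.4, 32.8 and 27.8 CPM in sham, 26.8, 31.2 and 25.1 in I/R and 37.4, 38.3 and 33.8 with rapamycin, the highest 3 values being those with rapamycin. Its log2 fold change was 0.40 against I/R (SE 0.11, adjusted p = 0.15), and DESeq2 gave an adjusted p of 0.0388. The value is uncertain for Lamtor1 itself: the deposited row lies on chromosome X and spans 1058 bases, whereas RefSeq places Lamtor1 on chromosome 1 of GRCr8 with a span of 5698 bases, and whether reads are shared with a copy was not tested. These genes have short implied lengths, 1191 bases for Lamtor1, 1216 for Lamtor4 and 2056 for Lamtor2 by counts and FPKM. Implied length is a relative scale, since for Lamtor1 it exceeds the 1058 bases that the deposited row spans. On removal of the length trend Lamtor1, Lamtor4 and Lamtor2 were at 0.19, 0.10 and 0.20 against I/R. Lamtor2 overlaps Ubqln4 on the opposite strand. Nprl2 and Nprl3, the measured subunits of the Rag inhibitor GATOR1, were between -0.09 and 0.10 in every comparison, and Nprl3 overlaps Mpg.

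In the drug comparison the values went with transcript length. Across the 11232 named and tested genes the Spearman correlation of log2 fold change with implied length was -0.48, and across the 37 it was -0.42; genes share libraries and are not independent. Of the 19 members shorter than the table's median of 3203 bases, 14 (73.7%) were fitted above 0, against 72.8% of all shorter genes. Of the 18 longer ones 9 (50%) were, against 36.0% of all longer genes. Once the trend was removed, 6 of 37 members had an unadjusted p under 0.05 in place of 11 (background 14.5%): Sesn1, Flcn and Rheb higher, and Pdpk1, Deptor and Rraga lower. Mtor, Rptor, Tsc1, Tsc2, Pik3r1 and Lamtor1 to Lamtor4 were closer to 0 than before, while Lamtor5 went from 0.08 to -0.13 and Rraga from -0.01 to -0.22.

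**Figure D4:**
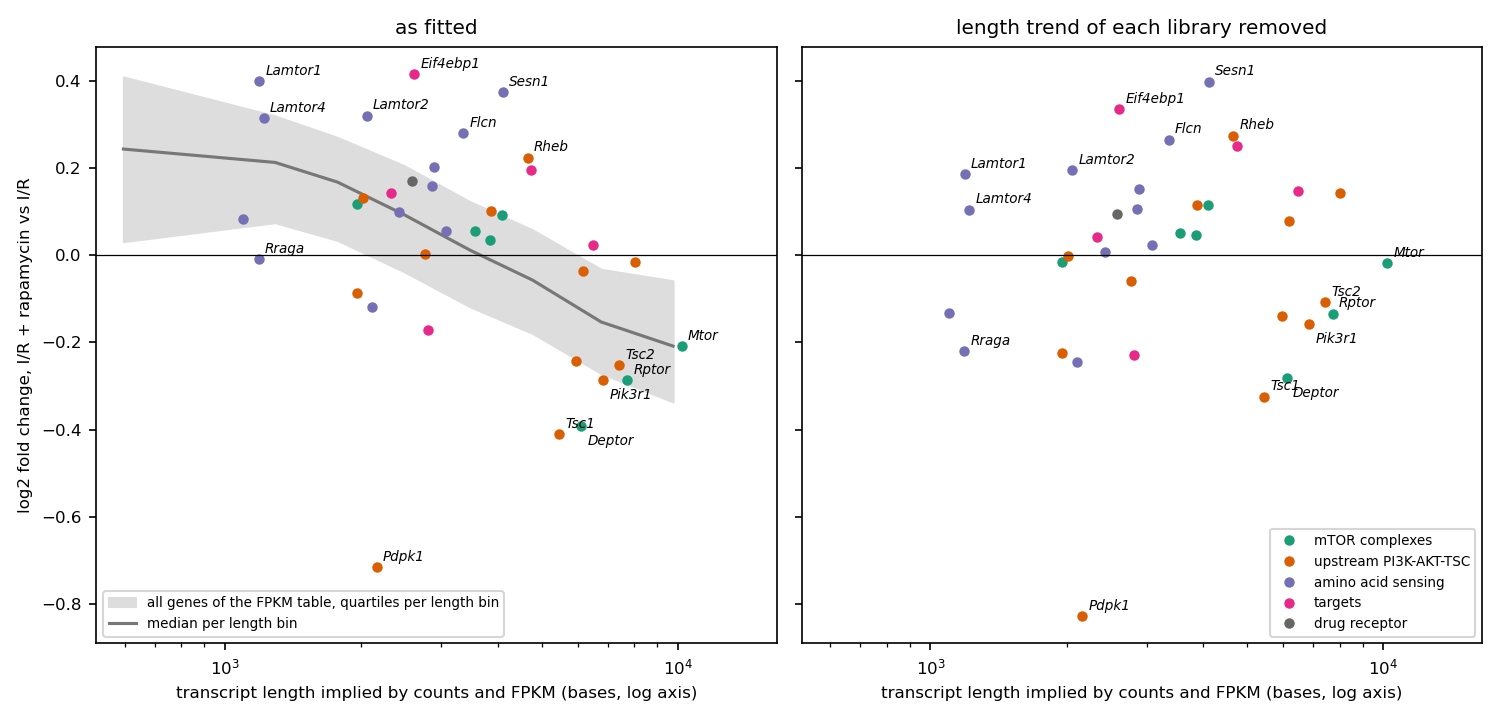
Log2 fold change of each mTOR pathway gene in the drug comparison by implied transcript length (log axis), as fitted (left, with the median and quartiles of all named genes by length) and with each library's length trend removed (right). Mtor, Rptor and Tsc2 follow the falling band on the left, while Pdpk1 lies far below it and Sesn1, Flcn and Rheb above it.

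None of the 5 targets had an unadjusted p under 0.05 in the drug comparison. Eif4ebp1, the gene of the translation repressor 4E-BP1, was at 3.96, 4.61 and 3.69 CPM in sham, 3.22, 2.55 and 3.33 in I/R and 4.94, 3.12 and 4.08 with rapamycin. I/R lay under sham without overlap (log2 fold change -0.43, SE 0.22, adjusted p = 0.588), and the rapamycin libraries spanned both. The far more abundant Eif4ebp2 was at 87.0 ± 13.3, 88.6 ± 11.5 and 78.7 ± 12.0 CPM. The S6 kinase genes were nearly level: Rps6kb1 was at 46.2 ± 1.29, 46.6 ± 1.85 and 47.4 ± 2.47 CPM and Rps6kb2 at 22.9 ± 1.62, 22.4 ± 1.06 and 24.7 ± 1.90 CPM. Rps6kb1 overlaps Rnft1 and Rps6kb2 overlaps Ptprcap.

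Sgk1 encodes a kinase that mTOR complex 2 phosphorylates, and its RNA is induced by mineralocorticoids and glucocorticoids. It was at 303, 375 and 295 CPM in sham, 527, 437 and 341 in I/R and 452, 468 and 576 with rapamycin. All rapamycin libraries were above all sham libraries, and I/R overlapped both. The log2 fold change was 0.62 in the combined comparison (SE 0.17, adjusted p = 0.176, 1.54-fold), and DESeq2 gave an adjusted p of 0.0151. In the injury comparison it was 0.42 (SE 0.17, adjusted p = 0.472), which was 0.26 without I/R 1.

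Because glucocorticoids also induce Sgk1 and Ddit4, 6 tested genes of a list of 7 that respond to them are given beside these 2, and edgeR called none of the 6 in any comparison. At an unadjusted p under 0.05 there were 2, 5 and 3 of them in the order of the comparisons above (33.3%, 83.3% and 50%, against 10.6%, 19.6% and 15.1% of the named genes). In the drug comparison 2 were higher (33.3%) and 3 lower (50%), against 9.82% and 9.74% of the named genes. There 4 of the 6 were fitted below 0 (median -0.44). DESeq2 called 0, 3 and 3, against 1.49%, 4.43% and 3.14% of all genes. Its calls in the drug comparison were Fkbp5, higher, and Per1 and Errfi1, lower (Errfi1 at -0.60 by DESeq2). Tsc22d3 (GILZ) was at 79.6, 93.6 and 82.5 CPM in sham, 100, 112 and 120 in I/R and 145, 146 and 111 with rapamycin, so both injured groups lay above sham. Its log2 fold change was 0.65 in the combined comparison (SE 0.12, adjusted p = 0.0872). Fkbp5 encodes FKBP51, a co-chaperone of the glucocorticoid receptor that also binds rapamycin. It was at 67.7, 73.9 and 91.4 CPM in sham, 68.4, 88.2 and 74.5 in I/R and 130, 143 and 95.4 with rapamycin. The rapamycin libraries lay above all others, at 0.67 against I/R (SE 0.16, adjusted p = 0.126) and 0.66 against sham. Other genes of the list lay the other way. Per1, a clock gene, was at 114 ± 20.3, 155 ± 9.03 and 108 ± 9.50 CPM (-0.52 in the drug comparison, adjusted p = 0.125). Klf9 was at -0.43 and Cebpd at -0.45 in that comparison. With the length trend removed, the drug comparison gave 0.73 for Fkbp5, 0.25 for Tsc22d3, -0.48 for Per1 and -0.46 for Klf9. Cebpd was then at -0.64 and Errfi1 at -0.54. The part of glucocorticoid signalling in the values of Sgk1 and Ddit4 was not tested.

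Relatives of the drug receptor were also examined: 11 of 12 listed FKBP family genes were tested and none was called by edgeR, with 1, 4 and 4 at an unadjusted p under 0.05 (9.09%, 36.4% and 36.4%). The named genes stood at 10.6%, 19.6% and 15.1%, so the first share was near the background. Besides Fkbp5, Fkbp4, which encodes the co-chaperone FKBP52, was at 188, 228 and 183 CPM in sham, 143, 158 and 128 in I/R and 155, 153 and 192 with rapamycin. I/R lay under sham (-0.49, SE 0.13, adjusted p = 0.283). Of the 4 in the drug comparison 3 were higher (27.3%) and 1 lower (9.09%), against 9.82% and 9.74% of the named genes. Besides Fkbp5 the higher ones were Fkbp3, a nuclear family member, at 0.37, and Fkbp8 at 0.23. The lower one was Fkbp9, of the endoplasmic reticulum, at -0.20. Fkbp10, of the same compartment, was at -0.49 but not among the 4 (unadjusted p = 0.0741 by edgeR). With the length trend removed Fkbp5, Fkbp3, Fkbp8 and Fkbp9 were at 0.73, 0.31, 0.09 and -0.27. Fkbp8 no longer passed the threshold (unadjusted p = 0.229 by edgeR). Fkbp11 then did, at -0.52 (unadjusted p = 0.0427 by edgeR). DESeq2 called Fkbp4 in the injury comparison, and Fkbp5 in both comparisons of the rapamycin group.

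Of 72 further genes of the pathway, 64 were tested. None was called by edgeR (1, 7 and 1 by DESeq2), and 10, 23 and 13 had an unadjusted p under 0.05 in the order above (15.6%, 35.9% and 20.3%, against 10.6%, 19.6% and 15.1% of the named genes). In the drug comparison, 21 of the 23 were lower, which is 32.8% of the 64, against 9.74% of the named genes. The 2 higher were Castor2 (0.56), a relative of the arginine sensor, and Maf1 (0.18), a repressor of RNA polymerase III. These 64 genes had a median implied length of 4336 bases. After removal of the length trend 12 of the 64 were lower at that threshold, against 8.1% of the named genes. Higher was 1 of the 64 (Castor2, at 0.71), against 6.41%. Maf1 was then at 0.09 (unadjusted p = 0.294 by edgeR).

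The insulin receptor Insr was at 32.6, 28.6 and 39.9 CPM in sham, 43.0, 45.3 and 49.7 in I/R and 17.8, 27.7 and 29.3 with rapamycin. I/R was the highest group and overlapped no other. Its log2 fold change in the drug comparison was -0.88 (SE 0.18, adjusted p = 0.0949, 0.543-fold). The related receptor Igf1r was at 22.6, 15.3 and 20.4 CPM in sham, 24.7, 21.5 and 22.7 in I/R and 10.0, 14.2 and 14.4 with rapamycin (-0.84, SE 0.17, adjusted p = 0.0943). Foxo1, a transcription factor that AKT keeps out of the nucleus, was at 11.8, 11.8 and 12.9 CPM in sham, 11.9, 11.1 and 12.8 in I/R and 5.29, 8.28 and 8.80 with rapamycin. Sham and I/R overlapped and the rapamycin libraries lay under both, at -0.68 against I/R (SE 0.18, adjusted p = 0.141) and -0.71 against sham (adjusted p = 0.154). Prkca, a kinase that mTOR complex 2 phosphorylates, was at -0.66 against I/R (SE 0.17, adjusted p = 0.141). With the length trend removed Insr, Igf1r, Foxo1 and Prkca were at -0.78, -0.76, -0.73 and -0.62. DESeq2 called 7 of the 64 in this comparison, all lower: these 4 and Irs2, Gsk3b and Prkaa2. Of all genes it called 3.08% lower and 1.35% higher.

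Phlpp2, a phosphatase that removes the mTOR complex 2 phosphate from AKT, was at 39.7, 32.1 and 34.8 CPM in sham, 48.5, 49.3 and 62.2 in I/R and 40.1, 46.7 and 40.8 with rapamycin. I/R lay above both other groups, by 0.59 over sham (SE 0.12, adjusted p = 0.203), and it was the only gene of the 64 that DESeq2 called in the injury comparison (adjusted p = 0.00805).

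**Figure D5:**
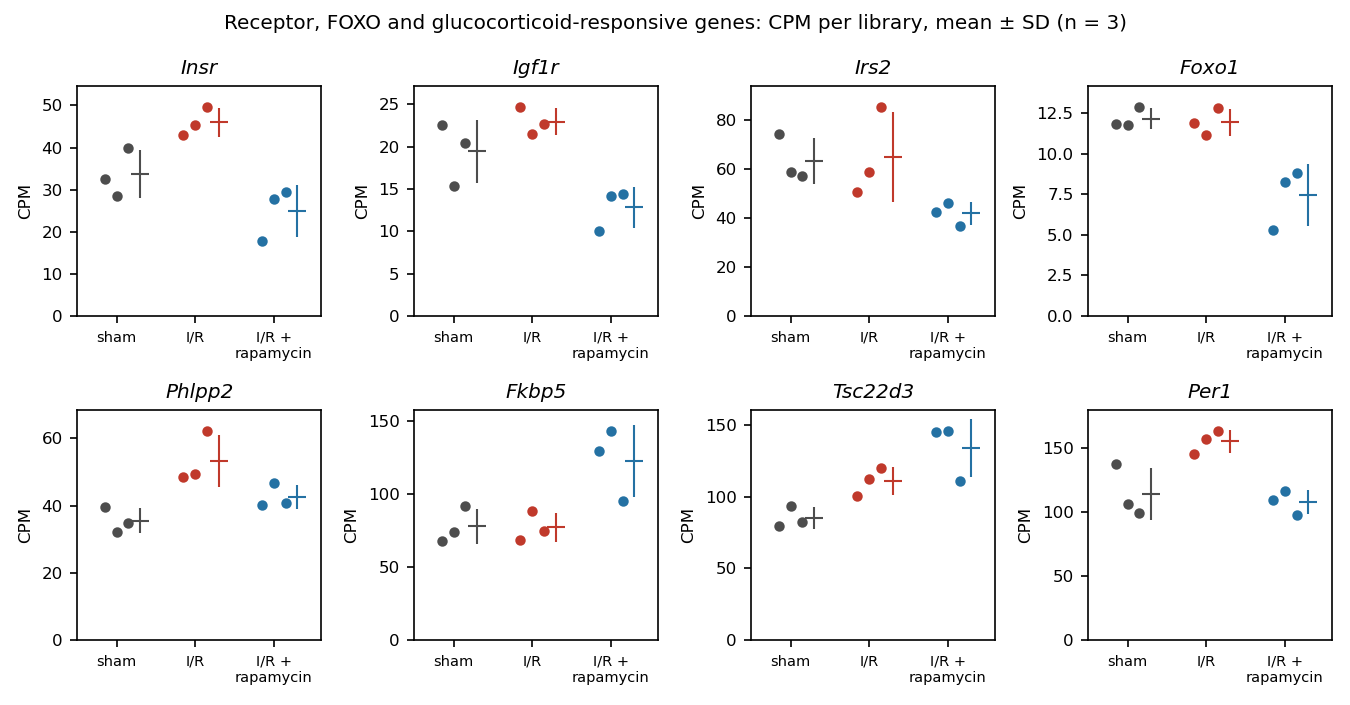
CPM of 8 receptor, FOXO, phosphatase and glucocorticoid-responsive genes in each library (points) with the group mean and SD (cross and bar, n = 3), axes from 0. Insr, Igf1r, Irs2 and Foxo1 are lowest with rapamycin, Fkbp5 is highest with rapamycin, and Tsc22d3 is lowest in sham.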

How the data were processed

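Rat kidney poly(A) RNA was sequenced in paired 150 base reads, per the labels' protocols, and all 9 libraries carry batch 1. Of the tools in the submitters' processing notes, HISAT2, StringTie, cutadapt and DESeq2, no version is given, and the build named is Rnor_6.0. Annotation, strand setting and counting rule: not given in the sources used here. Deposited by the authors were raw read counts for 30454 genes, and FPKM values with symbols for 11235 genes, per the file headers. Coordinates of the files are not printed, since they do not settle the build.

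Counts were fitted in R 4.3.3 with edgeR 4.0.16 (TMM factors, default filter on low counts, robust quasi-likelihood test, Benjamini-Hochberg adjustment over all 17335 tested genes), all libraries in one fit without covariates. An adjusted p under 0.05 was a call. CPM used TMM-scaled library sizes, and FPKM served for levels between genes, implied length and the limma alternatives. The standard error is the log2 fold change over the square root of the F statistic. Implied length is the ratio of counts to FPKM, scaled by the total count. It orders the genes by length and is not a measured transcript length. Its trend was removed by a lowess (span 0.3) per library, entered as an offset. As alternatives, DESeq2 1.42.0 replaced edgeR, its size factors or upper quartiles replaced TMM, and 2 other filters on low counts, the 6 compared libraries alone, the replicate block, limma 3.58.1 on log2(FPKM + 1) or log2(FPKM + 0.1), the named genes alone and leaving libraries out were tried. The test was checked on simulated data, with changes set in well counted genes. At an adjusted p under 0.05 it recovered 18% to 24% of 1.5-fold changes. Of 2-fold changes it recovered 65% to 69%, and of 4-fold changes 92% to 98%. A gene that edgeR did not call may therefore still differ between the groups.

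Values in every library are given for Mtor, Rptor, Fkbp1a and the 5 members with the smallest p per comparison, and for the 5 such genes of each other list in part. Flcn, Rheb, Ddit4, Castor2, Maf1, Irs2, Gsk3b, Prkaa2, Errfi1, Fkbp8 and the 3 promoters were picked with their values in view. The members and lists were chosen with earlier results of these data known, so the counts are descriptions. Libraries of a group differed beyond counting noise (chi-square per degree of freedom 35.4 to 140), so none is a copy. Over all genes together the spread between libraries was larger than counting error. This need not hold for each gene and group, such as Rptor with rapamycin (coefficient of variation 0.871%).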

Additional observations from a re-analysis of the deposited data

How the results depend on the processing

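Of the 22 member values with an unadjusted p under 0.05, each recomputed under 21 alternatives, none changed direction. Of all 37, with the length trend removed 4, 6 and 2 changed sign in the injury, drug and combined comparisons, each of a size of at most 0.13 as first fitted, and with DESeq2 0 did. edgeR called none of the 37 mTOR genes in any comparison under any normalization, filter or left-out library, and limma on FPKM called none either. DESeq2 called 2 in the drug comparison (Pdpk1, Lamtor1) and 4 against sham (Rragc, Sgk1, Sesn1, Pik3r1), and of the 64 further pathway genes it called 1 in the injury comparison, 7 in the drug comparison and 1 in the combined comparison; the cause was not tested. Over all genes edgeR called 10, 22 and 27 and DESeq2 240, 678 and 559. With the length trend removed the members at an unadjusted p under 0.05 numbered 5 in the injury comparison (10.3% of all genes passing) and 6 in the drug comparison (14.5%), in place of 3 and 11. With each library left out in turn these counts ran from 1 to 8 in the injury comparison, 6 to 13 in the drug comparison and 6 to 11 in the combined comparison, where fewer samples enter, while 6.12% to 10.5%, 9.49% to 17.3% and 8.5% to 15.7% of all tested genes passed. Without I/R 1 and sham 3 together they were 2, 8 and 8 (11.7%, 15.2% and 12.7% of all). The deviations of same-numbered libraries of different groups had correlations of -0.341 to 0.179, and those of different-numbered ones -0.121 to 0.343. Deviations from the mean of only 3 libraries constrain these values, so they cannot settle whether the numbers pair the samples. With the replicate block the counts were 2, 10 and 8 (8.21%, 14.9% and 12% of all), and edgeR called none of the 37 or of the 64. The least abundant member was Eif4ebp1, at 2.55 to 4.94 CPM.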
